A study of Mus musculus with 12 samples.

Results

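The mitotic genes of dental epithelial colonies are described here: 50 genes for the kinases and cyclins that drive a cell into mitosis, the spindle checkpoint, the kinetochore, the chromosomal passenger complex, mitotic kinesins, spindle and chromosome proteins, and cytokinesis. They were taken by gene symbol, and 49 of the 50 had a probe that matched and entered the tests, beside 31064 genes tested in all. The exception was Incenp, for which no probe was matched. Total RNA was measured in 12 single colonies grown in culture from the labial cervical loop, the epithelial stem cell niche at the base of the mouse incisor, on 1-colour Agilent whole mouse genome arrays. There were 4 double null colonies (genotype Bmi1-;Ink4a/Arf-), 4 Bmi1 null colonies (genotype Bmi1-) and 4 wild-type colonies. Loss of Bmi1 was shared by both mutant genotypes, all mice were of mixed genetic background, and how many animals the colonies came from is not stated in the labels, so p-values measure the spread between colonies.

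Bmi1 is a Polycomb subunit known for repressing the Ink4a/Arf locus (Cdkn2a), whose products hold the cell cycle back through the retinoblastoma and p53 pathways. As cells approach division, cyclin B with Cdk1 and the Aurora and Polo kinases start spindle assembly, kinetochores attach chromosomes to microtubules, and the checkpoint holds the anaphase-promoting complex back until every chromosome is attached. Most of these genes are known to be transcribed periodically: the DREAM complex represses them in resting cells, and B-Myb (Mybl2) and Foxm1 activate them before mitosis, through CCAAT boxes bound by NF-Y and through the cell cycle genes homology region, whose core reads TTTGAA. In RNA of whole colonies, fewer dividing cells and less RNA per dividing cell cannot be told apart.

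Because these genes are known to share promoter letters, promoters were read from the RefSeq table of assembly GRCm38.p6, 250 bases before to 50 after each gene's start, which held 41 of the 50 genes. CCAAT was searched on both strands, as were TTTGAA and its variant TTTAAA (which reads the same on both strands), and CCAAT can share an end letter with either of the others. CCAAT stood in 30 of the 41 promoters (73.2%), against 37.9% of 27025 promoters of all genes, and at least 2 copies stood in 21 (51.2%), against 12.2%. TTTGAA stood in 29 (70.7%), against 18.1%, and TTTAAA in 9 (22.0%), against 13.2%. Both CCAAT and TTTGAA stood in 25 (61.0%), against 7.12% of all promoters. None of these letters stood in the windows of Nuf2, Kif18a, Nusap1, Melk, Mad2l1 and Pttg1. These are matches of letters in a window, given as a description.

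The 130 bases before the start used by the promoter table are shown for 7 genes on which the results below turn, 5′ to 3′ on the gene's own strand, with CCAAT (or ATTGG, the same box on the other strand), TTTGAA (or TTCAAA) and TTTAAA in capitals. Cdk1 and Ccnb1 encode the kinase and cyclin at the core of mitotic entry, Cdc20 activates the anaphase-promoting complex, and Top2a and Ckap2l were among the genes with the largest differences between the mutants. Kif18b was the 1 gene with a negative difference and carries 2 CCAAT boxes, and Nusap1 rose without any of these letters in the stretch. In Top2a, Ckap2l and Kif18b the gene's outermost start in RefSeq lies slightly upstream of the start used, so that the last bases printed fall within the gene.
Cdk1 (chr10:69352913-69353042, minus strand): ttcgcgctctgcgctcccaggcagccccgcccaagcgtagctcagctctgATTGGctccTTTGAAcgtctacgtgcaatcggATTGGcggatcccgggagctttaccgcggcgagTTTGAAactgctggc
Ccnb1 (chr13:100786487-100786616, minus strand): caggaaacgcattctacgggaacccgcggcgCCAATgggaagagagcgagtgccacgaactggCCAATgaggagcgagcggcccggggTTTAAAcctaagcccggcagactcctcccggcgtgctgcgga
Cdc20 (chr4:118437344-118437473, minus strand): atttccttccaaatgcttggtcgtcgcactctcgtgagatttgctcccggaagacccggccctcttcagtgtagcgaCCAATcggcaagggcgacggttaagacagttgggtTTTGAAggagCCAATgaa
Top2a (chr11:99024190-99024319, minus strand): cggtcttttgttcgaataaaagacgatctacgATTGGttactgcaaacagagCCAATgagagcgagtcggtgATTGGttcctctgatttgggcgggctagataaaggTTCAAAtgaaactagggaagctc
Ckap2l (chr2:129297213-129297342, minus strand): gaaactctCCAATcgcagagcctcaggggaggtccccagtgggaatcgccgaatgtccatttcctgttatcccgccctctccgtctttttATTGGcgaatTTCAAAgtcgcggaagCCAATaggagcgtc
Kif18b (chr11:102925125-102925254, minus strand): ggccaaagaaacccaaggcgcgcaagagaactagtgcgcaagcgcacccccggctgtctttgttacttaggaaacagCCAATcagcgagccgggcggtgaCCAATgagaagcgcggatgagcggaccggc
Nusap1 (chr2:119618168-119618297, plus strand): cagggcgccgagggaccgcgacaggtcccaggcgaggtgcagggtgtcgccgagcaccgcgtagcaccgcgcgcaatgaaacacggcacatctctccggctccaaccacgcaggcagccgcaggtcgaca

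Levels are log2 processed signals after the array's 75th percentile was subtracted, so that a level of 0 equals that percentile. They are not comparable between genes. For a gene they are compared between colonies, but levels of wild-type and mutant colonies also differ by the shift of whole arrays given below. Where wild-type colonies are ranked against mutant colonies, the order therefore holds for this scaling only. A gene counts as called where limma, fitted over all genes, gave an adjusted p under 0.05. The arrays differed between genotypes as a whole. Log2 signals had an interquartile range of 4.66 ± 0.42 in double null, 4.52 ± 0.18 in Bmi1 null and 2.56 ± 0.06 in wild-type colonies (SD, n = 4 each), and the share of spots well above background was 80.1% ± 5.56 in double null, 82.5% ± 3.5 in Bmi1 null and 94.6% ± 2.70 in wild-type colonies. Over all genes the median log2 fold change was -0.06 between the mutants, but -1.24 for Bmi1 null over wild type and -1.39 for double null over wild type, and changes against wild type are given relative to these shifts as well. All 49 mitotic genes passed the background filter. The median array signal lay between 63.2 and 210 over a local background of 17 to 23, and 0 spots were saturated. Precision is limited by the number of arrays.

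The targeted genes were checked first. Bmi1 stood at -2.52 ± 0.21 in double null and -2.36 ± 0.15 in Bmi1 null colonies, against -0.27 ± 0.46 in wild-type colonies (SD, n = 4 each). Bmi1 was well above background on 4 of 4 arrays of each genotype, and its log2 fold changes over wild type, -2.25 in double null and -2.09 in Bmi1 null colonies, were -0.86 and -0.85 relative to the median of all genes. Cdkn2a was well above background on 0 of 4 double null, 4 of 4 Bmi1 null and 0 of 4 wild-type arrays. Set against Bmi1 null, double null colonies were at least 2.72-fold lower in Cdkn2a (limma adjusted p = 6.85e-06), and Bmi1 null over wild type was at least 1.85-fold higher. These bounds compare the brighter genotype with the lowest signal well above background on the dimmer genotype's arrays. The labels do not say whether the probes lie inside the deleted parts. All 9 dental epithelial markers, Krt5 and Krt14 among them, were well above background on every array.

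The comparison with the clearest group difference sets double null against Bmi1 null colonies and so concerns the added loss of Ink4a/Arf in cells that already lack Bmi1. The mitotic genes were higher in double null colonies as a group: 27 of 49 rose, 0 fell and 22 were not called. This is 55.1% called higher, against 2.81% of all genes tested, and 0 called lower, against 4.62% (either direction, 7.43%). The median log2 fold change was 1.01, against -0.06 over all genes, and 48 of 49 values were above 0. Folds of the genes that rose ran from 1.65 for Ccnb1 to 5.16 for Pbk. In 37 genes every double null colony lay above every Bmi1 null colony, against 6.6% of all genes, and 10 of these 37 were not called. Each of the 7 roles held at least 1 gene that rose.

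**Figure D1:**
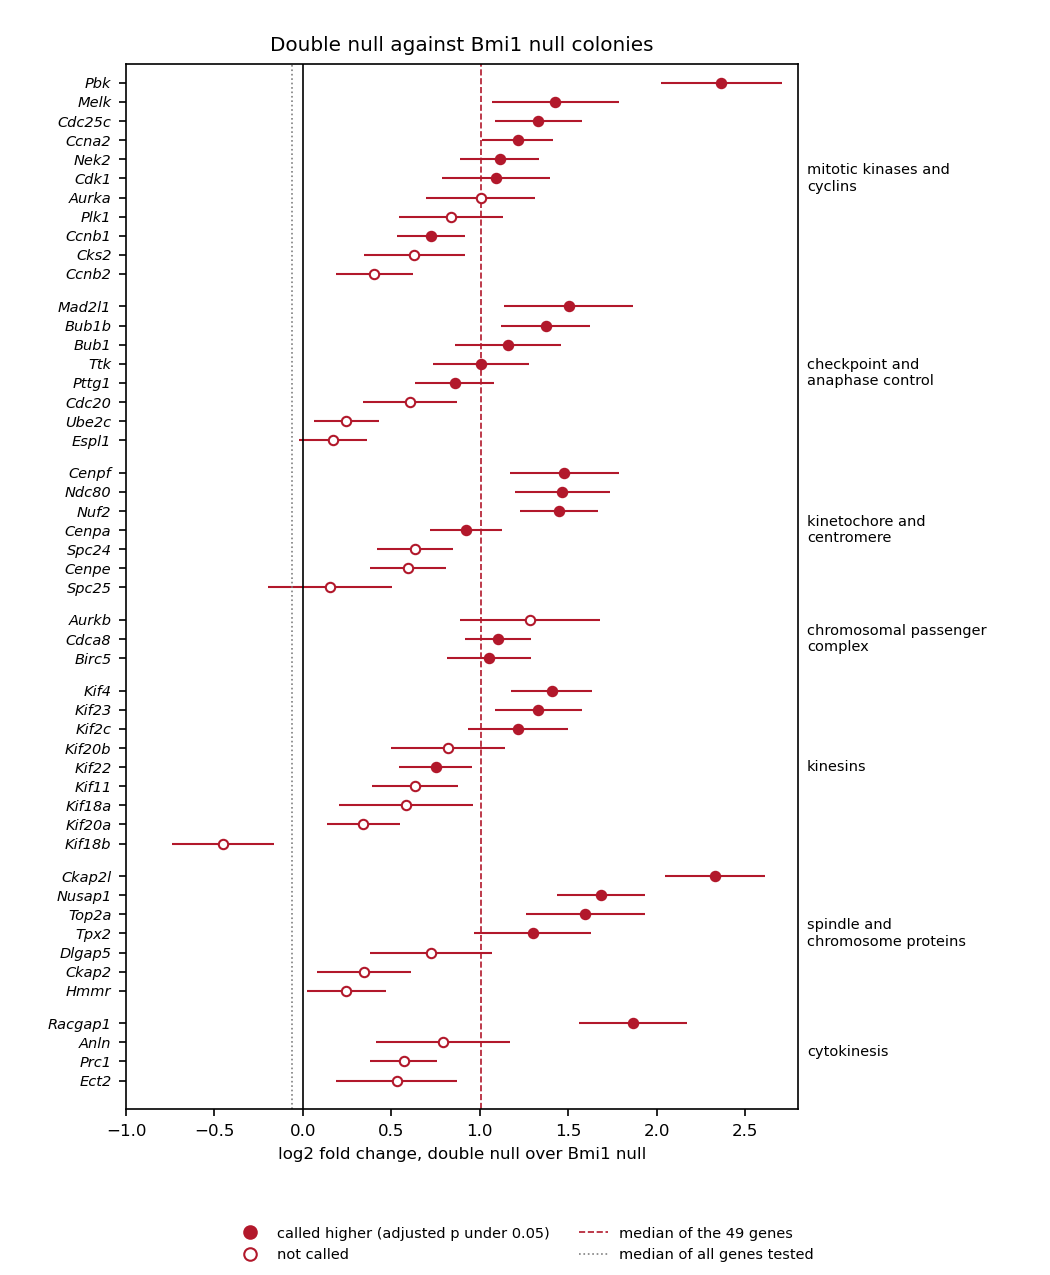
Log2 fold change of each mitotic gene, double null over Bmi1 null, grouped by role (points, with limma's standard error as bars; filled points were called higher). The points lie around a median of 1.01 (dashed), right of the median of all genes at -0.06 (dotted), and Kif18b alone lies left of 0.

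Among the kinases and cyclins, 7 of 11 rose, with a median log2 fold change of 1.09. Pbk, a mitotic protein kinase, had levels of 0.13, -0.64, -0.25 and -0.80 in double null colonies, against -2.37, -2.57, -3.46 and -2.62 in Bmi1 null colonies and -2.0, -2.12, -1.20 and -0.81 in wild-type colonies. Every double null colony lay above every other colony, wild-type colony 5 coming closest, and the fold over Bmi1 null was 5.16 (log2 2.37 ± 0.34 SE, limma adjusted p = 0.00213). Ccna2, the cyclin of late S phase and mitotic entry, had levels of 0.07, -0.25, 0.23 and -0.10 in double null colonies, against -1.08, -1.37, -1.40 and -1.07 in Bmi1 null colonies and -1.52, -1.34, -1.16 and -0.83 in wild-type colonies. The double null colonies were again the highest 4, while Bmi1 null and wild-type colonies overlapped, and the log2 fold change over Bmi1 null was 1.21 ± 0.20 (SE, adjusted p = 0.00402). Cdc25c, the phosphatase that activates Cdk1, showed the same arrangement, with 0.45, -0.26, 0.21 and -0.13 in double null colonies, against -1.15, -1.35, -0.98 and -1.59 in Bmi1 null colonies and -2.08, -1.30, -1.51 and -1.19 in wild-type colonies. Its log2 fold change over Bmi1 null was 1.33 ± 0.24 (SE, adjusted p = 0.00681).

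Cdk1, the mitotic kinase itself, had levels of 0.57, 0.26, 0.66 and 0.09 in double null colonies, against -0.91, -0.83, -0.54 and -0.5 in Bmi1 null colonies and -3.21, -2.06, -2.39 and -1.53 in wild-type colonies. On this probe, its brightest, the genotypes fell into separate tiers with no overlap, double null highest and wild type lowest. The log2 fold change over Bmi1 null was 1.09 ± 0.31 (SE, limma adjusted p = 0.0486), close to the threshold. A dimmer Cdk1 probe did not show these tiers, with means of -3.10 in double null, -3.82 in Bmi1 null and -2.96 in wild-type colonies. It was not called between the mutants (0.72 ± 0.34 SE, limma adjusted p = 0.234, fitted over all probes). Ccnb1, its main partner, rose by 0.72 ± 0.19 on the log2 scale (SE, adjusted p = 0.0387). The centrosomal kinase Nek2 rose by 1.11 ± 0.22 (adjusted p = 0.0104) and Melk, a kinase of proliferating cells, by 1.43 ± 0.36 (adjusted p = 0.0299). Melk ranged widely in wild-type colonies, between -2.46 and -0.61. The 4 genes not called were Ccnb2 (0.41 ± 0.22, adjusted p = 0.315), the Cdk1-binding subunit Cks2 (0.63 ± 0.29), Aurka, the Aurora kinase of spindle poles (1.01 ± 0.31, adjusted p = 0.0706), and Plk1, the Polo kinase (0.84 ± 0.29, adjusted p = 0.109). For Aurka and Plk1 every double null colony still lay above every Bmi1 null colony.

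**Figure D2:**
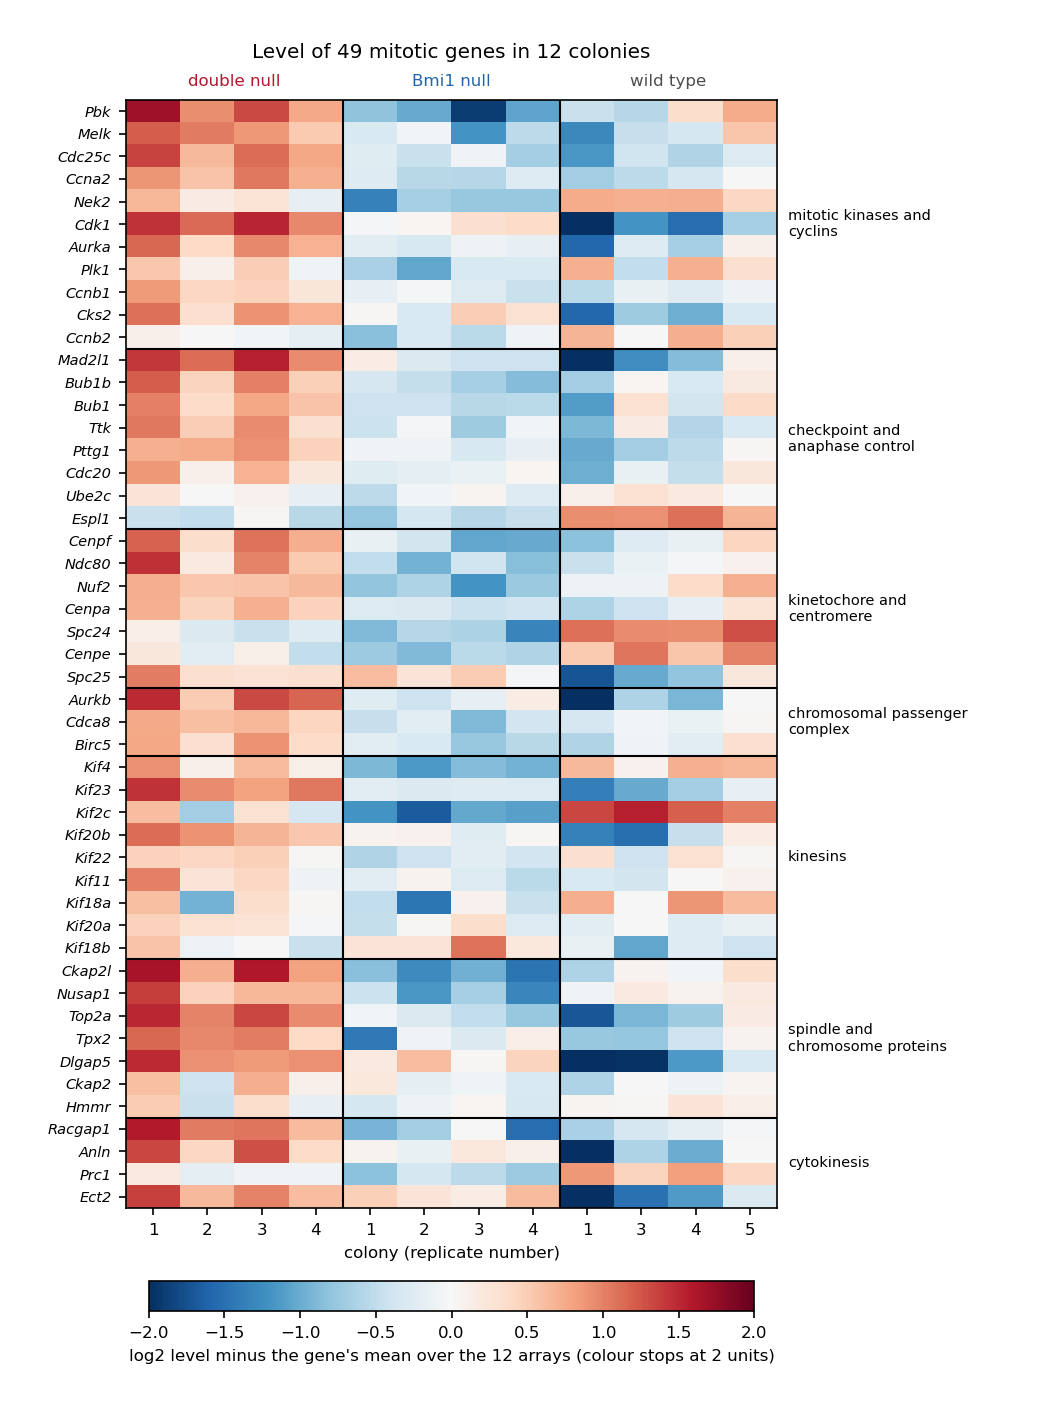
Level of 49 mitotic genes in each of 12 colonies (columns, by replicate number), drawn as the log2 level minus the gene's mean over the 12 arrays and grouped by role. Double null colonies are above the gene's mean in most rows, colony 1 the most, while the contrast of either mutant with wild type also carries the shift of whole arrays given in the text.

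Of the 8 genes of the checkpoint and of anaphase control, 5 rose, with a median of 0.93. Bub1b, the BubR1 subunit of the complex that inhibits the anaphase-promoting complex, had levels of 0.82, 0.044, 0.61 and 0.077 in double null colonies, against -0.73, -0.88, -1.07 and -1.27 in Bmi1 null colonies and -1.08, -0.35, -0.70 and -0.22 in wild-type colonies. All double null colonies lay above all others, and the log2 fold change over Bmi1 null was 1.37 ± 0.25 (SE, limma adjusted p = 0.00669). Mad2l1, the checkpoint protein that binds Cdc20, had levels of 3.24, 2.94, 3.39 and 2.78 in double null colonies, against 1.98, 1.54, 1.42 and 1.42 in Bmi1 null colonies and -0.23, 0.58, 0.96 and 1.94 in wild-type colonies. The double null colonies were the highest 4, the wild-type colonies spread the most, and the log2 fold change over Bmi1 null was 1.5 ± 0.37 (SE, adjusted p = 0.027). Bub1, the kinetochore kinase of the checkpoint, had levels of 0.26, -0.39, 0.028 and -0.19 in double null colonies, against -1.16, -1.17, -1.30 and -1.30 in Bmi1 null colonies and -1.87, -0.45, -1.13 and -0.37 in wild-type colonies. Here wild-type colony 5 lay inside the double null range, and the log2 fold change over Bmi1 null was 1.16 ± 0.30 (SE, adjusted p = 0.0336).

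Ttk, the Mps1 kinase that starts checkpoint signalling, rose by 1.01 ± 0.27 (SE, limma adjusted p = 0.0408), and securin, Pttg1, by 0.86 ± 0.22 (adjusted p = 0.0348). The other genes of the list, Cdc20, Ube2c and Espl1, were not called. Cdc20, the activator of the anaphase-promoting complex, had a log2 fold change of 0.61 ± 0.26 (adjusted p = 0.203) with no overlap between the mutants. Ube2c, its ubiquitin-conjugating enzyme, had 0.25 ± 0.18 and Espl1, separase, 0.17 ± 0.19, and both overlapped. The promoter windows of Pttg1 and Mad2l1 held none of the letters searched, and the printed stretch of Cdc20 holds TTTGAA between CCAAT boxes. A link between the letters and the changes was not tested.

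Of the 7 kinetochore and centromere genes, 4 rose, with a median of 0.92. Nuf2, a subunit of the Ndc80 complex that binds microtubules, had levels of 1.85, 1.66, 1.69 and 1.77 in double null colonies, against 0.34, 0.51, -0.068 and 0.39 in Bmi1 null colonies and 1.01, 1.02, 1.49 and 1.83 in wild-type colonies. The Bmi1 null colonies were the lowest 4, the double null and wild-type ranges overlapped, and the log2 fold change of double null over Bmi1 null was 1.45 ± 0.22 (SE, limma adjusted p = 0.00264). Ndc80, its partner, had levels of 1.38, 0.12, 0.92 and 0.44 in double null colonies, against -0.57, -1.03, -0.48 and -0.93 in Bmi1 null colonies and -0.53, -0.21, -0.10 and 0.0035 in wild-type colonies. The mutants did not overlap and the log2 fold change was 1.47 ± 0.27 (SE, adjusted p = 0.00674). Cenpf, a large protein of the outer kinetochore, had levels of 2.25, 1.42, 2.15 and 1.79 in double null colonies, against 0.92, 0.70, 0.021 and 0.057 in Bmi1 null colonies and 0.25, 0.81, 0.93 and 1.5 in wild-type colonies. Wild-type colony 5 lay inside the double null range, and the log2 fold change over Bmi1 null was 1.48 ± 0.31 (SE, adjusted p = 0.0128).

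Cenpa, the histone that marks the centromere, rose by 0.92 ± 0.20 (SE, limma adjusted p = 0.0171). The Ndc80 complex has 4 subunits; the other subunits were not called: Spc24 had a log2 fold change of 0.63 ± 0.21 (adjusted p = 0.0956) and Spc25 one of 0.15 ± 0.35 (adjusted p = 0.858). The difference between these values and those of Ndc80 and Nuf2 was not tested. Cenpe, the kinetochore kinesin, had 0.60 ± 0.22 (adjusted p = 0.122). In Spc25 the double null colonies overlapped the Bmi1 null colonies, double null colony 1 standing above the other 3.

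Of the 3 chromosomal passenger genes measured, Birc5 and Cdca8 rose. Cdca8, borealin, had levels of 1.44, 1.29, 1.35 and 1.11 in double null colonies, against 0.22, 0.46, -0.20 and 0.29 in Bmi1 null colonies and 0.35, 0.62, 0.54 and 0.70 in wild-type colonies. The double null colonies were the highest 4 and the log2 fold change over Bmi1 null was 1.10 ± 0.19 (SE, limma adjusted p = 0.00477). Birc5, survivin, had levels of 3.25, 2.81, 3.37 and 2.84 in double null colonies, against 2.26, 2.18, 1.71 and 1.92 in Bmi1 null colonies and 1.87, 2.41, 2.26 and 2.81 in wild-type colonies. Wild-type colony 5 lay just under the lowest double null colony, and the log2 fold change over Bmi1 null was 1.05 ± 0.24 (SE, adjusted p = 0.0188). Aurkb, the kinase of the complex, had levels of -1.12, -2.10, -1.29 and -1.45 in double null colonies, against -2.85, -3.02, -2.78 and -2.46 in Bmi1 null colonies and -4.88, -3.22, -3.52 and -2.62 in wild-type colonies. The mutants did not overlap, but with a log2 fold change of 1.29 ± 0.40 (SE) the adjusted p was 0.0711 and the gene was not called; it was well above background on 3 of 4 wild-type arrays.

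Of the 9 kinesins, 4 rose, with a median of 0.75. Kif4, the chromosome-bound motor that also shapes the midzone, had levels of 1.30, 0.48, 1.02 and 0.5 in double null colonies, against -0.52, -0.76, -0.49 and -0.56 in Bmi1 null colonies and 1.04, 0.47, 1.09 and 1.04 in wild-type colonies. The Bmi1 null colonies stood apart below the other genotypes, which overlapped, and the log2 fold change of double null over Bmi1 null was 1.41 ± 0.23 (SE, limma adjusted p = 0.00378). Kif23, the motor of the centralspindlin complex, had levels of 3.06, 2.57, 2.42 and 2.68 in double null colonies, against 1.39, 1.32, 1.36 and 1.34 in Bmi1 null colonies and 0.25, 0.60, 0.94 and 1.45 in wild-type colonies. The Bmi1 null colonies lay close together and every double null colony was higher, with a log2 fold change of 1.33 ± 0.25 (SE, adjusted p = 0.00721). Kif2c, the depolymerising kinesin MCAK, had levels of -0.73, -2.04, -1.03 and -1.68 in double null colonies, against -2.54, -3.01, -2.36 and -2.43 in Bmi1 null colonies and -0.012, 0.21, -0.14 and -0.33 in wild-type colonies. Wild-type colonies were the highest 4 and Bmi1 null colonies the lowest 4, and the log2 fold change of double null over Bmi1 null was 1.21 ± 0.28 (SE, adjusted p = 0.0218).

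Kif22, a chromosome-arm motor, rose by 0.75 ± 0.21 (SE, limma adjusted p = 0.0459). The 5 kinesins not called were Kif20b (0.82 ± 0.32), Kif11, the bipolar motor of spindle poles (0.63 ± 0.24), Kif18a (0.58 ± 0.38), Kif20a (0.34 ± 0.21) and Kif18b (-0.45 ± 0.29). Kif18b, a microtubule plus-end kinesin, had levels of -0.31, -1.0, -0.88 and -1.33 in double null colonies, against -0.63, -0.63, 0.21 and -0.67 in Bmi1 null colonies and -1.03, -1.93, -1.14 and -1.30 in wild-type colonies. Double null colonies overlapped both other genotypes, every Bmi1 null colony lay above every wild-type colony, and Bmi1 null colony 3 stood above every other colony. The printed stretch before Kif18b holds a pair of CCAAT boxes and no TTTGAA, which stands just after the start in its window.

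Of the 7 spindle and chromosome genes, 4 rose, with the highest median of any role, 1.30. Ckap2l, a spindle protein of neural progenitors and other dividing cells, had levels of -0.087, -1.01, -0.14 and -0.95 in double null colonies, against -2.58, -3.01, -2.71 and -3.21 in Bmi1 null colonies and -2.36, -1.68, -1.79 and -1.39 in wild-type colonies. The genotypes did not overlap, double null highest and Bmi1 null lowest, and the fold between the mutants was 5.03 (log2 2.33 ± 0.28 SE, limma adjusted p = 0.00076). Nusap1, which bundles spindle microtubules around chromosomes, had levels of 0.12, -0.80, -0.60 and -0.61 in double null colonies, against -1.70, -2.43, -1.94 and -2.58 in Bmi1 null colonies and -1.35, -1.07, -1.19 and -1.08 in wild-type colonies. It fell into the same tiers, with a log2 fold change of 1.68 ± 0.25 between the mutants (SE, adjusted p = 0.00249). Top2a, the topoisomerase that untangles sister chromatids, had levels of 2.56, 2.04, 2.39 and 1.99 in double null colonies, against 0.99, 0.75, 0.55 and 0.29 in Bmi1 null colonies and -0.67, 0.13, 0.34 and 1.22 in wild-type colonies. The double null colonies were the highest 4, wild-type and Bmi1 null colonies overlapped, and the log2 fold change between the mutants was 1.60 ± 0.33 (SE, adjusted p = 0.0137).

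Tpx2, the activator of Aurora A, had a log2 fold change of 1.30 ± 0.33 (SE, limma adjusted p = 0.0328), with Bmi1 null colony 1 at -1.25 and the other Bmi1 null colonies between -0.11 and 0.31. Hmmr (0.25 ± 0.22), Dlgap5 (0.72 ± 0.34) and Ckap2 (0.35 ± 0.27) were not called. Of the cytokinesis genes, Racgap1 rose. This GTPase-activating subunit of centralspindlin had levels of 0.24, -0.30, -0.28 and -0.71 in double null colonies, against -2.27, -2.04, -1.34 and -2.86 in Bmi1 null colonies and -1.99, -1.67, -1.52 and -1.38 in wild-type colonies. Every double null colony lay above every other colony, Bmi1 null colonies spread the most, and the fold between the mutants was 3.64 (log2 1.87 ± 0.31 SE, adjusted p = 0.00402).

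The other cytokinesis genes were not called between the mutants. Anln, anillin of the contractile ring, had levels of 2.19, 1.27, 2.14 and 1.21 in double null colonies, against 0.92, 0.71, 1.06 and 0.95 in Bmi1 null colonies and -1.19, 0.22, -0.15 and 0.85 in wild-type colonies. The mutants did not overlap, with a log2 fold change of 0.79 ± 0.38 (SE, limma adjusted p = 0.25). Prc1, the microtubule bundler of the midzone, had levels of -0.26, -0.65, -0.52 and -0.53 in double null colonies, against -1.28, -0.81, -0.97 and -1.18 in Bmi1 null colonies and 0.40, -0.011, 0.36 and -0.037 in wild-type colonies. The mutants again did not overlap, the wild-type colonies were the highest 4, and the log2 fold change between the mutants was 0.57 ± 0.19 (SE, adjusted p = 0.0932). Ect2, the exchange factor that sets the cleavage plane, had 0.53 ± 0.34 (SE, adjusted p = 0.411).

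**Figure D3:**
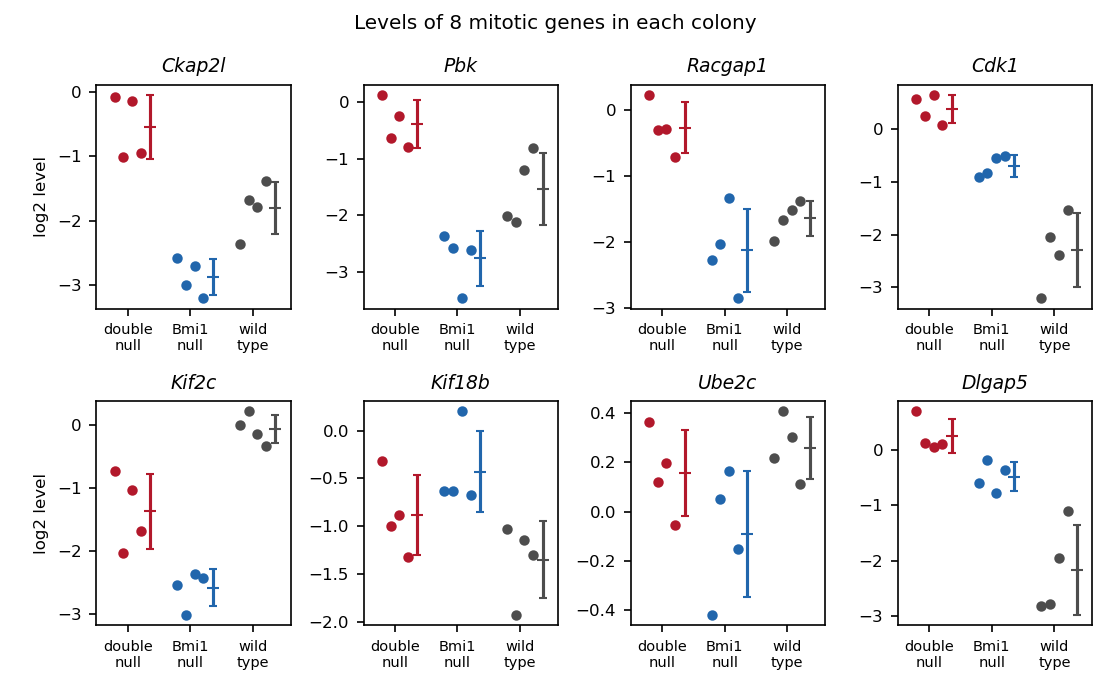
Levels of 8 mitotic genes in each of the 12 colonies (points; log2 level after the array's 75th percentile; dashes with bars are the mean and SD of 4 colonies). Each gene is shown by its brightest probe. Ckap2l, Pbk and Racgap1 are highest in the double null colonies, Cdk1 and Dlgap5 are lowest in the wild-type colonies, Kif2c is highest there, and Kif18b and Ube2c overlap between the mutants.

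As scaled, most of the mitotic genes were highest in the same double null colony. The Bmi1 null colonies showed no such shared order. The median level of the 49 genes was 0.51, 0.044, 0.21 and -0.055 in double null colonies 1 to 4, against -0.65, -0.67, -0.61 and -0.67 in the Bmi1 null colonies. No double null colony overlapped a Bmi1 null colony. Double null colony 1 was the highest of its genotype for 41 of 49 genes and colony 3 for the other 8, while in Bmi1 null colonies the highest value was spread over all 4 colonies (8 to 15 genes each). Double null colony 1 also had the narrowest signal range of its genotype, an interquartile range of 4.04, and the largest share of spots well above background, 87.6%, and whether these bear on its mitotic genes was not tested. Without that colony 19 genes were called higher, and the median was 0.89. Without double null colony 3 there were 15 and without Bmi1 null colony 3 there were 17, with medians of 0.93 and 0.93. The 12 genes that lost their call without at least 1 colony were Cdk1, Ccnb1, Melk, Bub1, Mad2l1, Ttk, Pttg1, Cenpa, Birc5, Kif2c, Kif22 and Tpx2, and over all settings their highest adjusted p lay between 0.0747 for Birc5 and 0.565 for Bub1. Measured above the median gene of its own array, the median mitotic gene stood at 2.36 to 2.52 in double null and 1.32 to 1.61 in Bmi1 null colonies, so colony 1 no longer stood apart.

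**Figure D4:**
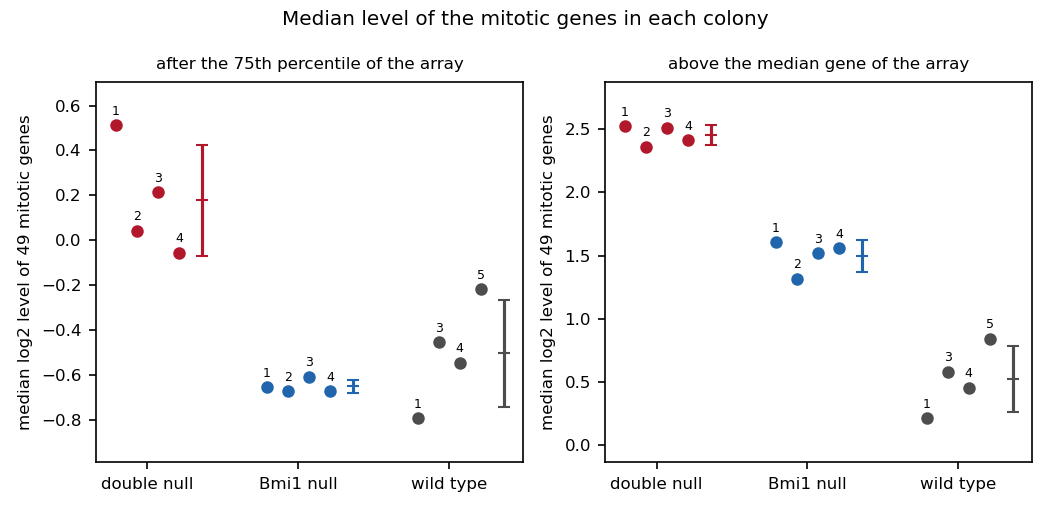
Median log2 level of the 49 mitotic genes in each colony (points, labelled by replicate number; dashes with bars are the mean and SD of 4 colonies), on the left after the 75th percentile of the array was subtracted and on the right above the median gene of the array. Double null colonies lie above Bmi1 null colonies on both scales; wild-type colonies overlap the Bmi1 null colonies on the left, between -0.79 and -0.22, and lie below them on the right, between 0.21 and 0.84.

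As a description over the 8 mutant arrays, which share the genotype difference, a gene's correlation with the median of the other mitotic genes was 0.93 at its median, from -0.31 for Kif18b to 0.99 for Kif4, and exceeded 0.9 for 32 genes. The within-genotype SD of a mitotic gene had a median of 0.32 in double null, 0.26 in Bmi1 null and 0.40 in wild-type colonies. Arrays lay on 5 slides, and slides 2 and 3 held both mutants. Within slide 2 (1 array each) 48 of 49 genes were higher in the double null colony, with a median difference of 1.10. Within slide 3 (2 double null arrays and 1 Bmi1 null array) 46 of 49 were, with a median of 1.02. With the slide as a fixed block, which leaves few degrees of freedom, the median stayed at 1.03 but 4 genes were called higher. With the slide as a random block 26 were.

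Probes gave a further view of the same arrays. The 49 genes had 69 probes, 17 genes had more than 1, and the brightest probe stood for its gene. Of the 37 probes of these 17 genes, 35 had a positive log2 fold change between the mutants, 20 were called higher and 0 lower, fitted over all probes. The exceptions in sign were second probes of Bub1 (-0.65 ± 0.27 SE, limma adjusted p = 0.176) and Ckap2 (-0.01 ± 0.22). Dimmer probes were also not called for 3 more genes that rose. These were Cenpf (0.21 ± 0.42, adjusted p = 0.826), Cdca8 (0.66 ± 0.24, adjusted p = 0.113) and Cdk1 (0.72 ± 0.34, adjusted p = 0.234). In the fit over genes, rather than probes, 2.81% of all genes were called higher and 4.62% lower. The second Bub1 probe is designed to another RefSeq transcript accession than the first. Of the 3 Ccnb1 probes all were called higher, at 0.72, 1.44 and 1.36, and of the 3 Cenpe probes 1 was, at 1.24.

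The other mitotic genes of these arrays were examined from lists outside the 49. Of 32 other centromere and kinetochore genes 10 rose in double null over Bmi1 null colonies and 0 fell (31.2% higher, against 2.81% of all genes, median 0.57). Ska1, a subunit of the complex that tracks microtubule tips, rose by 1.73 ± 0.36 (SE, limma adjusted p = 0.014), Spag5, astrin, by 1.17 ± 0.21 (adjusted p = 0.00588) and Cenpn by 1.10 ± 0.24 (adjusted p = 0.0166). Of 7 condensin subunits 2 rose (28.6%, against 2.81% of all genes), Ncapg (0.90 ± 0.24) and Ncaph (0.89 ± 0.21) (SE), and the median was 0.86. Of 31 other spindle, centrosome and cytokinesis genes 11 rose (35.5%, against 2.81% of all genes) and 2 fell, where 4.62% of all genes fell. Depdc1a rose by 1.82 ± 0.29 (adjusted p = 0.00374) and Cdc25b, a phosphatase that activates Cdk1 at the centrosome, by 1.79 ± 0.24 (adjusted p = 0.00127).

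**Figure D5:**
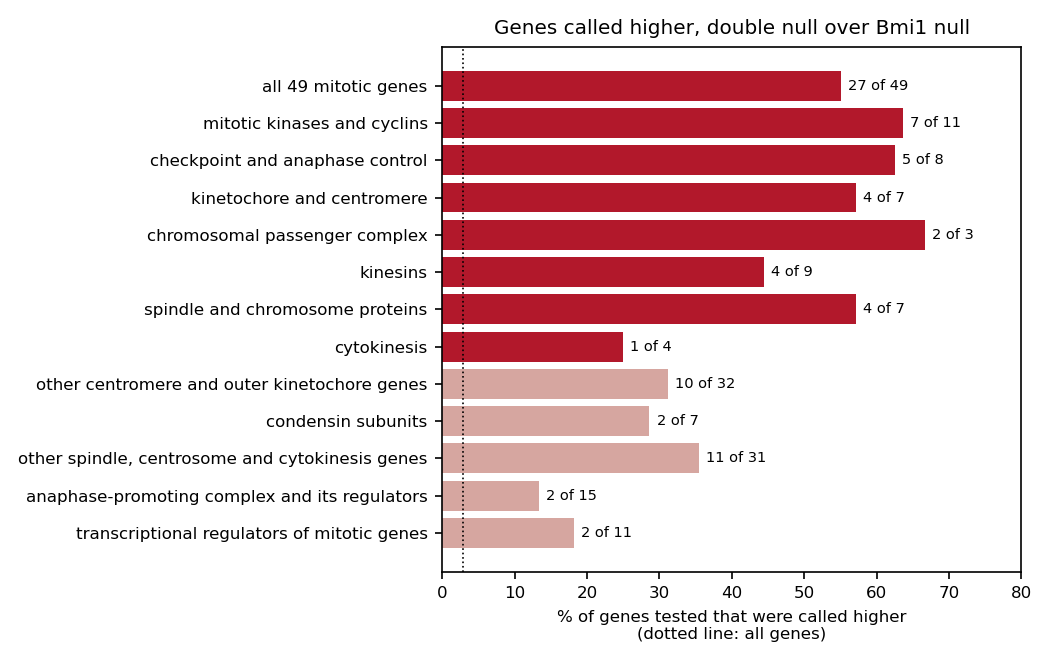
Percent of the tested genes of each list that were called higher in double null over Bmi1 null colonies (bars, with the counts beside them; dark bars are the 49 mitotic genes and their roles, pale bars the other mitotic lists). The dotted line is the 2.81% of all genes called higher; the 49 genes stand at 55.1% and the other lists between 13.3% and 35.5%.

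The 2 spindle genes that fell were Gtse1, a microtubule tip protein, and Psrc1, a regulator of spindle dynamics. Gtse1 had levels of -1.26, -2.34, -1.85 and -2.74 in double null colonies, against 0.036, -0.65, -0.42 and 0.037 in Bmi1 null colonies and -3.25, -1.82, -2.83 and -1.88 in wild-type colonies. Every Bmi1 null colony lay above every other colony, and the log2 fold change of double null over Bmi1 null was -1.80 ± 0.38 (SE, limma adjusted p = 0.014). Psrc1, chosen after its value was seen, had a log2 fold change of -1.61 ± 0.20 (SE, adjusted p = 0.000776). Both are known in other cells as genes that p53 induces. Of 15 genes of the anaphase-promoting complex and its regulators 2 rose (13.3%, against 2.81% of all genes) and 1 fell, where 4.62% of all genes fell. The inhibitor Fbxo5 (Emi1) rose by 1.19 ± 0.19 (limma adjusted p = 0.00377) and Anapc5 by 0.72 ± 0.17 (adjusted p = 0.0219). Ube2s, the enzyme that extends ubiquitin chains, fell by 1.41 ± 0.25 (adjusted p = 0.00599).

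Of 11 transcriptional regulators of mitotic genes, Mybl2 and Foxm1 rose and the other 9 were not called. Mybl2, B-Myb, had levels of 0.17, -0.41, 0.0067 and -1.01 in double null colonies, against -1.82, -1.33, -1.62 and -1.62 in Bmi1 null colonies and 0.18, -0.59, 0.15 and -0.26 in wild-type colonies. Bmi1 null colonies were the lowest 4, and the log2 fold change of double null over Bmi1 null was 1.29 ± 0.27 (SE, limma adjusted p = 0.0143). Foxm1 had levels of 1.89, 1.83, 2.06 and 1.5 in double null colonies, against 0.48, 0.52, 0.70 and 1.21 in Bmi1 null colonies and 0.59, 0.36, 0.75 and 1.12 in wild-type colonies. The double null colonies were the highest 4, with a log2 fold change of 1.09 ± 0.23 (SE, adjusted p = 0.014). Subunits of the MuvB core and of DREAM were not called between the mutants: Lin9 had 0.60 ± 0.27, Lin37 0.14 ± 0.18, Lin52 0.15 ± 0.18, Lin54 0.043 ± 0.22, E2f4 -0.33 ± 0.24 and Rbl2, p130, -0.10 ± 0.20 (SE).

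Markers of cell types were read beside these results. Between the mutants, 1 of 9 dental epithelial markers was called higher (Epcam, 1.73 ± 0.34) and 1 lower (Col17a1, -1.43 ± 0.29). Of the other lists, 0 of 10 mesenchymal, 0 of 7 immune, 0 of 5 endothelial and 0 of 5 glial, neural and melanocyte markers were called. Over all genes 7.43% were called in either direction, so 0 calls in lists this short do not show equal cell content. Log2 fold changes of the mesenchymal markers ran from -0.69 to 2.52. Summed over its list on the linear scale, the epithelial level was 394 to 810 in double null and 437 to 630 in Bmi1 null colonies, with a wild-type range of 124 to 395, in units of the array's 75th percentile. The mesenchymal sum was 5.08 to 40.6 in double null, 4.93 to 9.82 in Bmi1 null and 11.2 to 13.7 in wild-type colonies. Double null colony 4 had the highest mesenchymal median, 0.76 against -2.93 to -1.16 in the other double null colonies, and without it 25 mitotic genes were called higher between the mutants. No marker was below background on all 4 arrays of a genotype.

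Bmi1 null against wild-type colonies concerns loss of Bmi1 itself. No common direction of the mitotic genes held under all scalings. Taken as scaled, 8 genes rose (16.3%, against 25.2% of all genes), 14 fell (against 58.3%; either direction, 83.5%) and 27 were not called, with a median of -0.13. Scaled to the array's median the median was 0.80, by quantile normalization 0.25 and in the authors' processed values 0.11. In 4 genes every Bmi1 null colony lay above every wild-type colony, against 23.8% of all genes. Relative to the all-gene shift of -1.24, 42 of 49 genes lay above the median gene, with a relative median of 1.11. This depended on which genes and values were used: among genes well above background on all 12 arrays the shift was -0.24, 24 of 47 lay above it and the relative median was 0.11, and in the authors' values these were -0.087, 30 of 49 and 0.20.

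Under every alternative tried 10 genes kept their call in Bmi1 null over wild type. Among those that fell, Kif2c had a log2 fold change of -2.52 ± 0.28 (SE, limma adjusted p = 4.32e-06), Spc24 of -1.92 ± 0.21 (adjusted p = 3.84e-06), Nek2 of -1.53 ± 0.22, Kif4 of -1.49 ± 0.23, Cenpe of -1.48 ± 0.22 and Espl1 of -1.44 ± 0.19. Relative to the all-gene shift, Kif2c stood at -1.28 and Spc24 at -0.68. The others lay closer to the median gene, with Nek2 at -0.29, Kif4 at -0.26, Cenpe at -0.24 and Espl1 at -0.20. Spc24 had levels of -1.47, -1.89, -2.05 and -1.86 in double null colonies, against -2.48, -2.17, -2.24 and -2.92 in Bmi1 null colonies and -0.5, -0.65, -0.67 and -0.30 in wild-type colonies. Every wild-type colony lay above every mutant colony. Espl1, in the same way, had levels of -2.33, -2.37, -1.85 and -2.44 in double null colonies, against -2.66, -2.23, -2.45 and -2.34 in Bmi1 null colonies and -0.96, -0.97, -0.78 and -1.20 in wild-type colonies. Its wild-type colonies were the highest 4 and the mutants overlapped.

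The other 4 that kept their call rose. Dlgap5, a spindle assembly protein also known as Hurp, had levels of 0.69, 0.11, 0.05 and 0.10 in double null colonies, against -0.60, -0.19, -0.78 and -0.36 in Bmi1 null colonies and -2.82, -2.77, -1.95 and -1.11 in wild-type colonies. Every Bmi1 null colony lay above every wild-type colony, with a log2 fold change of 1.68 ± 0.34 over wild type (SE, limma adjusted p = 0.000568). Ect2 rose by 1.66 ± 0.34 (adjusted p = 0.00059), Spc25 by 1.16 ± 0.35 (adjusted p = 0.00789) and Cks2 by 1.02 ± 0.29 (adjusted p = 0.00522). Among the genes that kept their call, dimmer probes taken by themselves were not called for Ect2 (0.28 ± 0.24), Kif4 (-0.35 ± 0.20) and Cenpe (-0.37 ± 0.32 and -0.28 ± 0.33). Cdk1 rose by 1.60 ± 0.31 (adjusted p = 0.000325) on its brightest probe, but its dimmer probe was called lower, at -0.86 ± 0.34 (SE, adjusted p = 0.0324). Wild-type colony 1 was the lowest of its genotype for 31 of 49 genes and colony 5 the highest for 33, and without colony 5 13 genes were called higher in Bmi1 null over wild type.

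Double null against wild-type colonies, which share their arrays with the comparisons above, concerned both losses together. As scaled, 31 genes rose (63.3%, against 25.7% of all genes), 6 fell (against 59.7%; either direction, 85.4%) and 12 were not called, with a median of 0.88. Relative to the all-gene shift all 49 lay above the median gene, with a relative median of 2.28 and a lowest value of 0.093 for Kif2c. Among genes well above background on all 12 arrays the shift was -0.29, 40 of 47 lay above it and the relative median was 1.18, with Kif2c, Spc24, Espl1, Cenpe, Prc1, Ccnb2 and Nek2 below. In 27 genes every double null colony lay above every wild-type colony, against 24.7% of all genes. The median was positive under each scaling, 1.89 by the array's median, 1.22 by quantile normalization and 1.10 in the authors' values. Among the brightest probes of the 49 genes that of Cdk1 had the largest rise, 2.70 ± 0.31 (SE, limma adjusted p = 4.1e-06), followed by Dlgap5 (2.40 ± 0.34), Mad2l1 (2.28 ± 0.37), Ect2 (2.19 ± 0.34) and Aurkb (2.07 ± 0.40). The 6 that fell were Kif2c (-1.30 ± 0.28), Spc24 (-1.29 ± 0.21), Espl1 (-1.27 ± 0.19), Cenpe (-0.88 ± 0.22), Prc1 (-0.67 ± 0.19) and Ccnb2 (-0.5 ± 0.22); scaled to the array's median 0 genes were called lower, and Cenpe, Prc1 and Ccnb2 turned positive. The dimmer Cdk1 probe had -0.14 ± 0.34 (SE, limma adjusted p = 0.703, fitted over all probes), and the mean of both probes gave 1.28. For Bub1, Cenpe and Cenpf, probes of the gene were called in opposite directions against wild type.

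Markers of several cell types differed in both comparisons against wild type. With the 75th percentile scaling, all 9 epithelial markers were called higher in each mutant over wild type. All 7 immune and all 5 endothelial markers were called lower. Over all genes, 25.2% were called higher and 58.3% lower for Bmi1 null over wild type, and 25.7% and 59.7% for double null. Of 10 mesenchymal markers, 1 was called higher and 5 lower for Bmi1 null, and 1 and 4 for double null. Relative to the all-gene shifts, the medians were -2.29 and -2.38 for immune, -1.19 and -1.22 for endothelial and -0.05 and 0.54 for mesenchymal markers. The immune sum was 0.567 to 1.04 in double null, 0.659 to 0.867 in Bmi1 null and 7.81 to 9.43 in wild-type colonies. The endothelial sum was 0.309 to 0.543 in double null and 0.303 to 0.498 in Bmi1 null colonies, with 1.77 to 2.12 in wild type. The sum of glial, neural and melanocyte markers was 2.70 to 4.30 in double null, 3.55 to 4.58 in Bmi1 null and 9.91 to 11.8 in wild-type colonies. The part of these differences in the mitotic values against wild type was not tested.

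Taking the 3 comparisons side by side, 18 genes rose in double null colonies over both other genotypes and were not called between Bmi1 null and wild type. These held Ccna2, Ccnb1, Cdc25c, Bub1, Bub1b, Mad2l1, Top2a and Racgap1. This pattern is that of the brightest probes. Of the 18 genes, dimmer probes of Ccnb1 (-1.21), Cdc25c (-1.30), Bub1 (-2.03) and Cenpf (-2.44) were called lower in Bmi1 null over wild type. Those of Racgap1 (0.57) and Kif23 (0.99) were called higher there, fitted over all probes. Pbk, Nusap1 and Ckap2l were called lower in Bmi1 null over wild type, as were 58.3% of all genes, and higher in double null over either. Relative to the all-gene shift they were not lower in Bmi1 null over wild type, at 0.018, 0.25 and 0.17. Nek2, Nuf2 and Kif4 were called lower in Bmi1 null colonies than in both other genotypes and were not called between double null and wild type. Their values in Bmi1 null over wild type were -0.29, 0.19 and -0.26 relative to the all-gene shift. Cks2, Spc25, Kif20b, Dlgap5, Ect2 and Anln were called higher in each mutant over wild type and not called between the mutants. Ccnb2, Espl1, Cenpe, Spc24 and Prc1 were called lower in each mutant over wild type. Relative to the all-gene shift all of them lay above the median gene in double null over wild type. Cdk1, on its brightest probe, was called higher in double null over Bmi1 null and in Bmi1 null over wild type. Ube2c, Kif11, Kif20a, Hmmr and Ckap2 were not called in any comparison on their brightest probes. The dimmer probes of Kif11 (1.06 ± 0.32) and Ckap2 (0.78 ± 0.22) were called higher in Bmi1 null over wild type. They were also called higher in double null over wild type (2.05 ± 0.32 and 0.77 ± 0.22, SE, fitted over all probes). All these patterns are those of the brightest probes, and dimmer probes of Kif4, Kif20b, Cenpe and Ect2 also gave other calls. The calls against wild type in these patterns hold for the 75th percentile scaling. How many of all genes show each pattern was not counted, so whether a pattern is unusual is not known. In the single comparisons, 2.81% of all genes were called higher between the mutants and 25.7% higher in double null over wild type. In Bmi1 null over wild type 83.5% were called in either direction.

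The promoter letters were counted in the 23 genes with a promoter in the table that rose between the mutants and in the 18 not called. CCAAT stood in 15 of 23 genes that rose and in 15 of 18 not called, at least 2 copies of it in 12 of 23 and in 9 of 18, TTTGAA in 14 of 23 and in 15 of 18, and TTTAAA in 6 of 23 and in 3 of 18. Windows with none of the letters were found in 5 of the 23 and 1 of the 18. This count was described and not tested.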

How the data were processed

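The deposited files were the scanner output of 12 arrays, 1 per colony. Per the file headers, the authors ran Feature Extraction 10.7.3.1 with protocol GE1_107_Sep09 and build mm9. RNA was amplified as whole transcriptome and labelled with Cy3, per the labels' protocols. The processed signal that was used is the authors' deposited, background-subtracted intensity on a linear scale. A deposited table of the authors' processed log2 values (array medians 7.21 to 7.24, correlation with the log2 spot median 0.992 to 1.00, so that scale and direction follow from the data while no source used here gives its normalization) served as an alternative. The files hold no mean signal, so normexp background correction (offset 50) used the spot and background medians.

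Each array had 45018 spots, 43379 of them not controls. Spots with outlier flags were left out as missing values. Signals were log2-transformed, the array's 75th percentile was subtracted and spots of a probe were averaged. Probes well above background on at least 3 of 4 arrays of a genotype were kept (39338). Names came from accessions matched to a RefSeq table of GRCm38.p6: of 41174 probes 24844 had 1 symbol and 16330 none, which kept the array's name. The brightest probe stood for a gene. Groups came from the sample titles. limma 3.58.1 in R 4.3.3 fitted 3 genotype means (9 residual degrees of freedom), with Benjamini-Hochberg adjustment over 31064 genes. The fit was tested on simulated data. The most alike pair of arrays of a genotype correlated at 0.988, and 0 pairs were identical.

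The mitotic genes and all lists were chosen with earlier results of these data known. Values in every array were given for the 3 genes of each role with the smallest p between the mutants, and, chosen after their values were seen, for Cdk1, Kif18b, Spc24, Espl1 and Dlgap5 and for Gtse1, Mybl2 and Foxm1. From each other mitotic list up to 3 called genes with the largest change were named. Genes of the other lists without a matched probe were Cenpl, Knstrc, Ncaph2, Kif14, Kifc1, Troap, Cdkn3, Pkmyt1, Cd68 and Sox10. Alternatives covered background correction, scaling, the filter, the probe rule, slides, replicate numbers, the genotypes fitted and each array left out. Same-numbered colonies did not deviate together, with correlations between -0.14 and 0.22, so the numbers were not taken as pairs.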

Additional observations from a re-analysis of the deposited data

Results flagged for a closer look

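Within the genotypes, 7 of 171 groups of 4 colonies held a colony whose gap to its nearest neighbour was, as a share of the whole range, above Dixon's critical value, where chance gives about 1 in 20, or 8.55 groups. In Nek2, Bmi1 null colony 1 stood at -2.49 and the other Bmi1 null colonies between -1.91 and -1.80. Wild-type colony 5 stood at -0.73 in the same gene, below -0.43 to -0.41 in the other wild-type colonies. Double null colony 1 stood at 0.51 in Spc25, above -0.22 to -0.19 in the other double null colonies, and at 0.69 in Dlgap5, above 0.050 to 0.11. In Kif22, double null colony 4 stood at 1.35, below 1.73 to 1.80. Kif4 in wild-type colony 3 was 0.47, below 1.04 to 1.09, and Kif18b in Bmi1 null colony 3 was 0.21, above -0.67 to -0.63.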

How the results depend on the processing

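Between double null and Bmi1 null colonies, no setting called any of the 49 mitotic genes lower. The 27 called higher became 16 by quantile normalization and 4 with the slide as a fixed block, and stood between 20 and 28 in the other settings on all arrays (normexp 23, array median 28, the authors' values 21). Leaving out 1 colony gave 15 to 28, with 15 without double null replicate 3 and 17 without Bmi1 null replicate 3. In every setting Ccna2, Pbk, Nuf2 and Ckap2l were called, and 15 of the 27 kept their call without any single colony. The 12 that lost it without at least 1 colony were Cdk1, Ccnb1, Melk, Mad2l1, Bub1, Ttk, Pttg1, Cenpa, Birc5, Kif2c, Kif22 and Tpx2. The median of 1.01 was 0.80 in the authors' values, and leaving out 1 colony gave 0.89 to 1.08.

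For Bmi1 null over wild type, the 8 called higher became 29 by the array's median, 13 by quantile normalization and 14 in the authors' values, and 6 to 13 with 1 colony left out (13 without wild-type replicate 5). The 14 called lower became 6 by the array's median. The median of -0.13 reversed to 0.80, 0.25 and 0.11 under these 3 settings. For double null over wild type, the 6 called lower became 0 by the array's median, and the median of 0.88 moved to 1.89, 1.22 and 1.10, to 1.12 with the replicate block, and to between 0.68 (without wild-type replicate 1) and 1.01 with 1 colony left out. Measured from the all-gene median, the mitotic median of 1.11 in Bmi1 null over wild type was 0.75 by normexp, 0.40 by quantile normalization, 0.20 in the authors' values and 0.11 with the filter on all 12 arrays. That of 2.28 in double null over wild type was 1.22, 1.36, 1.17 and 1.18 under these settings, with 44, 37, 36 and 40 genes above the median gene in place of 49. That of 1.07 between the mutants was 0.51 by normexp. The replicate block, whose numbers pair no colonies, called 20 genes higher between the mutants.

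Single genes reversed against wild type as follows. By the array's median Ccnb2 (0.026) and Plk1 (0.046) reversed in Bmi1 null over wild type, and Ccnb2 (0.50), Cenpe (0.12) and Prc1 (0.33) in double null over wild type. By quantile normalization Kif18a (1.25) and Ckap2l (0.29) reversed in Bmi1 null, and Cdc20 (-0.023) and Birc5 (-0.26) in double null. In the authors' values Kif18a (0.42), Nusap1 (0.11) and Ckap2l (0.40) reversed in Bmi1 null and Birc5 (-0.14) in double null. With the mean of a gene's probes Bub1 (-0.90), Cenpe (0.27) and Cenpf (-0.60) reversed in double null. The single probes averaged there had opposite signs: 0.88 and -2.68 for Bub1, -0.88, 0.87 and 0.83 for Cenpe, and 1.03 and -2.23 for Cenpf. The cause of the reversals under the other settings was not tested. Signal over background limits Kif18a and Aurkb, each well above background on 3 of 4 wild-type arrays.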
